A study of Mus musculus with 24 samples.

Results

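The 7 genes described here, Nkx2-1, Etv5, Cebpa, Foxa1, Foxa2, Gata6, and Klf5, encode the transcription factors that specify and maintain alveolar epithelial type 2 cells (AEC2s). They were taken by name from the 55426 rows of the count table, and all 7 were among the 18046 genes with enough counts to be tested. AEC2s are the cuboidal cells of the alveolus that make surfactant and act as progenitors of the flat alveolar epithelial type 1 cells (AEC1s). NKX2-1 is a homeodomain factor that lung epithelium needs from its specification onward. FOXA1 and FOXA2 are forkhead pioneer factors, which bind closed chromatin, and together with NKX2-1, C/EBPα, and the zinc-finger factor GATA6 they occupy the regulatory regions of surfactant genes. ETV5 is an ETS-family factor that acts downstream of FGF receptor and MAPK signaling and sustains the AEC2 state. KLF5 is a Krüppel-like zinc-finger factor of lung and other epithelia that takes part in injury responses and in the choice between AEC2 and AEC1 fates.

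The study isolated AEC2s from Krt8+/+ (WT) mice and from Krt8-/- (KO) mice, which lack keratin 8 in every cell, and sequenced RNA from the fresh cells (day 0) and after 1, 3, and 7 days of 2D culture on a stiff, laminin-coated surface. The labels carry 3 dates, each with both genotypes at every time, which gives 3 libraries in each of 8 groups and 24 in all. Each date is read here as a separate isolation of cells, called isolation 1, 2, or 3 in order of date. Mouse ages, the strain background, and the number of mice per isolation are not given in the labels. Culture by itself turns AEC2s toward AEC1-like and transitional cells, so every change from day 0 described here is one from fresh to cultured cells.

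Libraries held 10184439 to 19483386 counts. Krt8 stood at 485 to 5092 CPM (counts scaled to a common library size by the TMM method) in WT libraries and at 21.2 to 47.4 CPM in KO libraries. The fresh cells carried the markers of their label: the 20 surfactant and secretory genes summed to 315253 to 413804 CPM on day 0, and Sftpc alone averaged 186650 CPM in WT and 186912 CPM in KO cells. In isolation 1 the WT and KO libraries differed in sex-linked RNA, with Xist at 62.4 to 79.5 CPM in WT and 5.92 to 11.95 CPM in KO libraries, and Y-linked RNA at up to 0.441 CPM in WT and at least 173 CPM in KO libraries. In the other 2 isolations the genotypes matched. The part of sex in the genotype comparison was not tested.

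Within 1 day of culture 6 of the 7 factors fell and Klf5 rose, with the same result in WT and KO cells. In WT cells on day 1, 6 members were lower and 1 higher (edgeR quasi-likelihood test, adjusted p below 0.05), where 54.7% of all tested genes were called, 28.5% as lower and 26.2% as higher. On day 3, 5 of 7 were lower and none higher, against a background of 54.0% (26.1% higher and 27.8% lower). All 7 were lower by day 7, where 58.8% of genes were called (28.6% higher and 30.2% lower). The members' median log2 changes at these times were -2.21, -1.68, and -2.17, while that of all tested genes was 0. In KO cells 7, 5, and 7 members were called on days 1, 3, and 7 in the same directions. The background there was 50.6% (23.7% higher, 26.9% lower), 52.0% (25.4% and 26.6%), and 58.5% (28.6% and 29.9%). The ranges of the 3 libraries lay apart from those of day 0 for 7, 5, and 7 members in either genotype, beside 55.5%, 61.9%, and 65.6% of all genes in WT and 56.1%, 61.1%, and 65.0% in KO cells. These comparisons share the day 0 libraries. Cebpa and Gata6 overlap antisense genes by 51 and 93 exon bases, at up to 5 and 70 counts a library, and whether the counting used strand is not given in the sources used here.

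**Figure D1:**
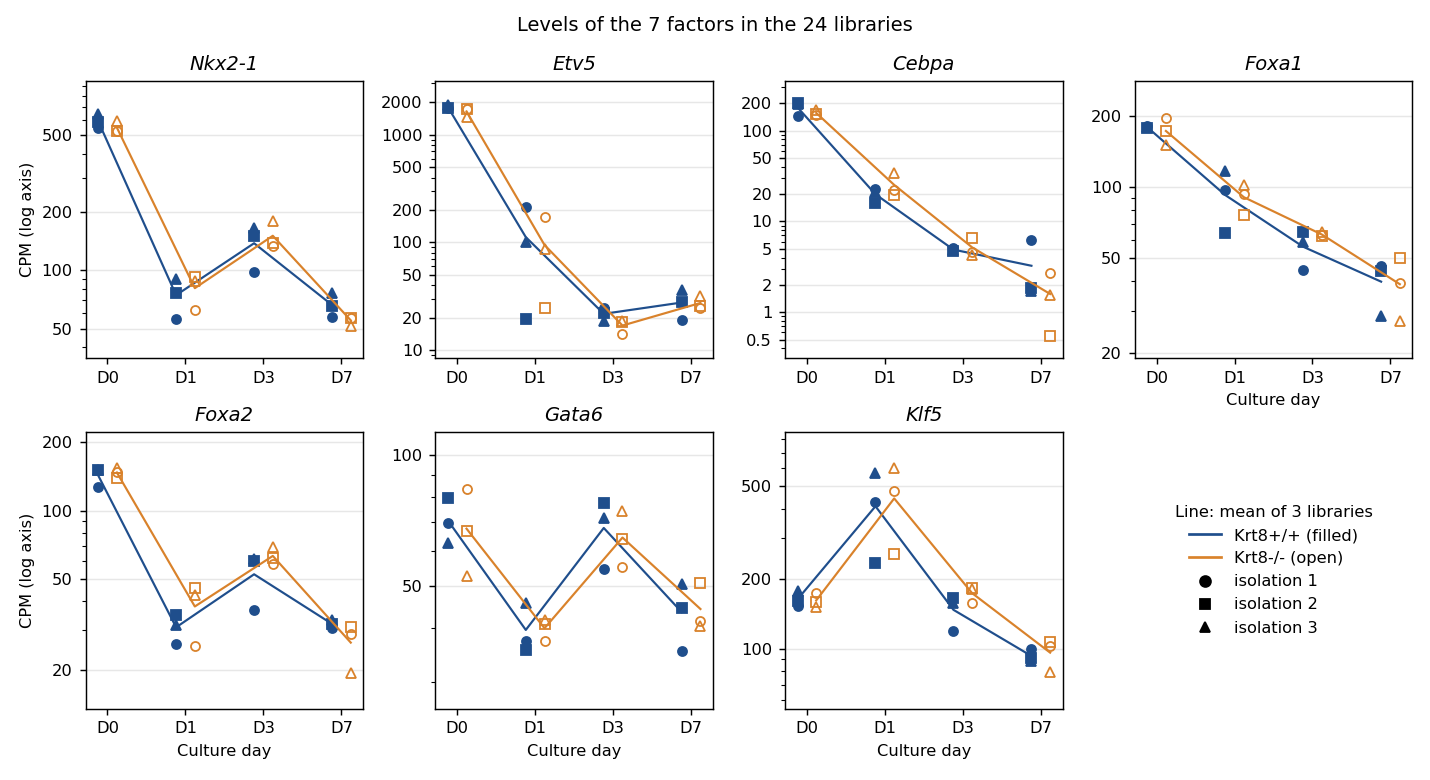
Level of each factor in each of the 24 libraries (CPM, log axis) by culture day. Filled blue symbols are Krt8+/+ and open orange symbols Krt8-/- libraries, symbol shapes mark the 3 isolations, and lines join the means of 3 libraries. Etv5 and Cebpa end lowest against their own day 0 level, Nkx2-1 and Foxa2 dip on day 1 and are higher again on day 3, and Klf5 peaks on day 1.

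Scaling matters for the small changes. With library totals in place of TMM, the median of all genes tested moved by 0.43 to 0.61 on the log2 scale in the comparisons with day 0, and the share of called WT genes that were higher went from 47.9%, 48.4%, and 48.6% to 69.8%, 74.7%, and 66.3% at the 3 times. Among KO genes it went from 46.9%, 48.8%, and 48.9% to 71.8%, 73.8%, and 65.7%. The changes given below are therefore relative to the typical gene. In these bulk libraries, fewer cells of a type and less RNA of a gene per cell cannot be told apart.

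Nkx2-1 (ENSMUSG00000001496) lies at chr12:56531958-56536908 on the minus strand (GRCm38) and was the second most abundant member on day 0. Its 3 day 0 libraries held 542, 585, and 645 CPM in WT cells and 528, 522, and 591 CPM in KO cells (isolations 1, 2, and 3). On day 1 it stood at 56.3, 76.5, and 90.5 CPM in WT and 62.2, 92.3, and 88.2 CPM in KO cells, and no cultured library of any day reached the day 0 range. This is a fall of 2.99 on the log2 scale in WT cells (SE 0.21, 7.93-fold, edgeR adjusted p = 7.4e-10) and of 2.76 in KO cells (SE 0.21, adjusted p = 2.2e-09). Nkx2-1 then rose to 98.1, 149.8, and 166 CPM in WT and 134, 139, and 179 CPM in KO cells on day 3. The rise from day 1 was 0.89 on the log2 scale in WT cells (SE 0.20, edgeR adjusted p = 0.00214) and 0.90 in KO cells (SE 0.20, adjusted p = 0.00229), in each of 3 isolations of both genotypes. By day 7 it had fallen again, to 57.2, 65.3, and 76.1 CPM in WT and 57.0, 56.5, and 51.9 CPM in KO cells, with a change from day 3 of -1.06 (SE 0.20, edgeR adjusted p = 0.00194) and -1.45 (SE 0.20, adjusted p = 6.0e-05). Without isolation 2 the WT calls between days 1 and 3 and between days 3 and 7 were lost (edgeR adjusted p = 0.0819 and 0.136), with changes of 0.84 and -1.0. Against day 0 it was lower by day 3 (-2.10 in WT and -1.86 in KO cells, SE 0.20; edgeR adjusted p = 3.5e-08 and 1.7e-07) and by day 7 (-3.16 and -3.31, SE 0.21; adjusted p = 1.8e-10 and 1.0e-10). In the order of the 8 groups, the ranges of neighbors did not overlap between day 0 and day 3, nor between day 3 and day 1, while WT day 7 overlapped WT day 1.

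Foxa2 (ENSMUSG00000037025, chr2:148042877-148046969, minus strand) followed the same course. It stood at 126, 150.4, and 151 CPM in WT and 147, 139, and 154 CPM in KO cells on day 0, and at 25.9, 34.9, and 31.4 CPM in WT and 25.5, 45.9, and 42.4 CPM in KO cells on day 1. The fall was 2.21 in WT (SE 0.21, edgeR adjusted p = 5.3e-08) and 1.95 in KO cells (SE 0.21, adjusted p = 2.6e-07) on the log2 scale. On day 3 Foxa2 was back at 36.7, 59.8, and 61.0 CPM in WT and 58.0, 62.1, and 69.5 CPM in KO cells. This rise from day 1 amounted to 0.77 in WT (SE 0.21, edgeR adjusted p = 0.00954) and 0.73 in KO cells (SE 0.21, adjusted p = 0.0144). It was seen in all isolations of both genotypes, but the call was lost without isolation 2 or 3 in WT (edgeR adjusted p = 0.103 and 0.121) and without isolation 1, 2, or 3 in KO cells (adjusted p = 0.0650, 0.0633, and 0.0978), with changes between 0.58 and 0.88. On day 7 the values were 30.6, 31.9, and 33.0 CPM in WT and 28.7, 30.8, and 19.5 CPM in KO cells, a fall from day 3 of 0.72 in WT cells (SE 0.21, edgeR adjusted p = 0.0391) and 1.26 in KO cells (SE 0.21, adjusted p = 4.0e-04). The WT call was lost without isolation 2 or 3 (adjusted p = 0.404 and 0.271), and the KO call without isolation 3 (adjusted p = 0.0520). Every cultured library stayed below every day 0 library, with a change by day 7 of -2.16 in WT (SE 0.21, edgeR adjusted p = 3.7e-08) and -2.48 in KO cells (SE 0.22, adjusted p = 6.9e-09).

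Across the 24 libraries Foxa2 ranked 3 of 18045 genes in likeness to Nkx2-1, with a root mean square difference of 0.379 between their log2 CPM profiles after each was centered on its mean. The libraries share isolations and the large step between fresh and cultured cells, so this is a description. With the means of the 8 groups in place of single libraries, Foxa2 was not among the 5 genes nearest to Nkx2-1. Since both were lower on day 1 and higher again on day 3, the 250 bases before their RefSeq start sites (GRCm38.p6, minus strand) are shown with those of Cebpa, the member with 1 of the deepest falls (plus strand). Capitals mark matches on either strand to any of 10 short motifs. The NKX2-1 motif was searched as CAAGTG, the forkhead motif as TGTTTAC, the C/EBP motif as TTGCNNAA, the ETS motif as CCGGAA, and the GATA motif as AGATAA. The KLF motif was searched as CCACCC, the GC box as GGGCGG, the AP-1 motif as TGANTCA, the box bound by TBP as TATAAA, and the NF-Y box as CCAAT. Marked matches do not overlap in these windows. The last pair of motifs was added after the sequences were seen.
Nkx2-1, chr12:56536909-56537158: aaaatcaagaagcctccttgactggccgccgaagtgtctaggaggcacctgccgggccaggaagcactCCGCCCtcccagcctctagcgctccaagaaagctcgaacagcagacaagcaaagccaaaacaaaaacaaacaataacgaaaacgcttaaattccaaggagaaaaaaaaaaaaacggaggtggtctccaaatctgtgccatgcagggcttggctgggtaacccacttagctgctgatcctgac
Foxa2, chr2:148046970-148047219: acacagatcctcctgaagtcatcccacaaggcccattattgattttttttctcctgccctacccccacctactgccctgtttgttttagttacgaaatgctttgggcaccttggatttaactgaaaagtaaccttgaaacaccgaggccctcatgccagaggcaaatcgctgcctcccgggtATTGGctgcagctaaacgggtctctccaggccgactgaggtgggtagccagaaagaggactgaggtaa
Cebpa, chr7:35119043-35119292: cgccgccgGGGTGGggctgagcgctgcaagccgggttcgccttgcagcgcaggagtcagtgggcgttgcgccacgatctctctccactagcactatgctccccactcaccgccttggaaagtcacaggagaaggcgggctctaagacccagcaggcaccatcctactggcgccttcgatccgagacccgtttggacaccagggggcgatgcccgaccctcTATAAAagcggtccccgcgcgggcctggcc
Nkx2-1 held 1 GC box, which 32.7% of 32851 mouse promoter windows of this length also held. Foxa2 held 1 NF-Y box (33.8% of windows), and Cebpa held 1 KLF motif (28.1%) and 1 TBP box (12.4%). None of these windows held the NKX2-1 motif (11.6% of windows), the forkhead motif (3.17%), or the C/EBP motif (9.56%), nor the ETS (12%), GATA (9.99%), or AP-1 (6.75%) motif, and a window without these letters says nothing about binding elsewhere. The windows of Etv5 and Foxa1 hold 149 and 10 annotated exon bases and are not printed. Both held the forkhead motif, along with GC and NF-Y boxes. Nkx2-1 and Foxa2 windows had the same GC content of 50.8%, and that of Cebpa had 66.4%.

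Foxa1 (ENSMUSG00000035451, chr12:57540628-57546916, minus strand) parted from Foxa2, with a smaller fall on day 1 and group means that were lower at each later time. Levels were 181, 178, and 179.9 CPM in WT and 196, 173, and 150.2 CPM in KO cells on day 0, and 97.4, 63.9, and 117 CPM in WT and 93.5, 76.4, and 102 CPM in KO cells on day 1. Day 3 gave 44.8, 64.7, and 58.6 CPM in WT and 63.0, 62.0, and 64.4 CPM in KO cells, and day 7 gave 46.6, 44.5, and 28.6 CPM in WT and 39.3, 50.2, and 27.2 CPM in KO cells. No cultured library reached the day 0 range, and the fall from day 0 in WT cells deepened from 0.95 (SE 0.22, edgeR adjusted p = 0.00125) on day 1 to 1.68 (SE 0.23, adjusted p = 3.1e-06) on day 3 and 2.17 (SE 0.23, adjusted p = 1.1e-07) on day 7 on the log2 scale. In KO cells it was 0.93, 1.45, and 2.15 (SE 0.22 to 0.23), with edgeR adjusted p of 0.00167, 1.8e-05, and 1.2e-07. With library totals the KO change on day 1 was -0.45 and not called (adjusted p = 0.0602). From day 1 to day 3 Foxa1 fell by 0.73 in WT cells (SE 0.22, edgeR adjusted p = 0.0207), a call lost without isolation 1 or 3 (adjusted p = 0.240 and 0.114), and in KO cells the change was -0.52 (SE 0.22, adjusted p = 0.0946). The change from day 3 to day 7 was not called, at -0.49 in WT (SE 0.22, edgeR adjusted p = 0.23) and -0.70 in KO cells (SE 0.22, adjusted p = 0.0508). In WT cells it was a fall in 2 of 3 isolations, with overlapping ranges. Per kilobase of exon, the level of Foxa2 over that of Foxa1 was 1.12 ± 0.119, 0.506 ± 0.225, 1.303 ± 0.155, and 1.18 ± 0.383 in WT cells of days 0, 1, 3, and 7 (SD, n = 3). In KO cells the ratio was 1.21 ± 0.202, 0.603 ± 0.231, 1.41 ± 0.112, and 0.964 ± 0.0893. On day 1 the highest ratio of the 6 libraries was 0.843, below every library of the other days. Their relative Foxa3 stayed under 2 CPM in all group means.

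Etv5 (ENSMUSG00000013089, chr16:22381309-22439719, minus strand) was the most abundant member on day 0 and fell furthest by day 3. Fresh cells held 1776, 1754, and 1898 CPM in WT and 1748, 1738, and 1454 CPM in KO libraries. On day 1 the libraries spread widely, with 215, 19.6, and 102 CPM in WT and 172, 24.6, and 87.2 CPM in KO cells. Both genotypes gave the same order of isolations, and isolation 2 was lowest in each. On day 3 all 6 libraries lay between 14.0 and 24.6 CPM, and on day 7 between 18.99 and 36.1 CPM. The change from day 0 in WT cells was -4.01 (SE 0.62, edgeR adjusted p = 1.7e-05) on day 1, -6.38 (SE 0.69, adjusted p = 1.8e-07) on day 3, and -6.03 (SE 0.68, adjusted p = 2.2e-07) on day 7 on the log2 scale, that is 16.1-fold, 83.3-fold, and 65.4-fold lower. KO cells gave -4.12, -6.60, and -5.91 (SE 0.62, 0.70, and 0.68; edgeR adjusted p at most 1.5e-05). From day 1 to day 3 Etv5 fell by 2.37 in WT (SE 0.58, edgeR adjusted p = 0.00508) and by 2.48 in KO cells (SE 0.59, adjusted p = 0.00436), calls lost without isolation 1 (adjusted p = 0.0950 and 0.118) or 3 (adjusted p = 0.0978 and 0.0817). Between days 3 and 7 the change was 0.35 in WT (SE 0.56, edgeR adjusted p = 0.814) and 0.70 in KO cells (SE 0.57, adjusted p = 0.519). The KO rise was seen in 3 of 3 isolations with ranges apart. It was called with only the libraries compared (0.66, edgeR adjusted p = 0.0436).

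**Figure D2:**
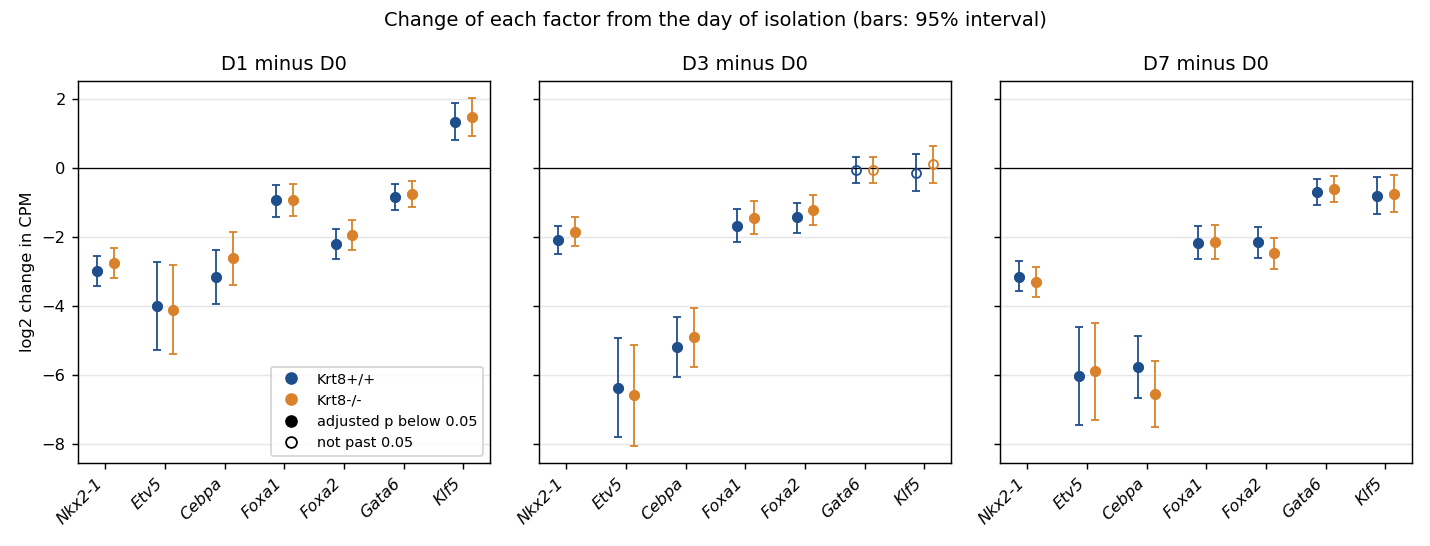
Log2 change of each factor on days 1, 3, and 7 against day 0 in Krt8+/+ (blue) and Krt8-/- (orange) cells, with 95% intervals. Filled circles passed an adjusted p of 0.05. Klf5 on day 1 is the single called rise, and Gata6 and Klf5 on day 3 are the members not called. With library totals in place of TMM both lie above 0 on day 3, as Klf5 in KO cells does with TMM. Gata6 is then called on day 3 in both genotypes and Klf5 in KO cells. Gata6 on days 1 and 7, Klf5 on day 7, and Foxa1 in KO cells on day 1 are no longer called.

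Cebpa (ENSMUSG00000034957, chr7:35119293-35121928, plus strand, a single exon) fell at every step in WT cells up to day 3. Its levels were 146, 201, and 194 CPM in WT and 149, 151, and 169 CPM in KO cells on day 0, and 22.6, 15.9, and 21.1 CPM in WT and 22.1, 19.7, and 33.9 CPM in KO cells on day 1. On day 3 WT libraries held 5.12, 4.73, and 4.82 CPM and KO libraries 4.59, 6.63, and 4.295 CPM. Day 7 gave 6.19, 1.82, and 1.72 CPM in WT and 2.69, 0.545, and 1.53 CPM in KO cells, and the lowest of these libraries rests on 7 counts. Against day 0 the WT change was -3.18 (SE 0.37, edgeR adjusted p = 6.3e-07), -5.20 (SE 0.42, adjusted p = 3.4e-09), and -5.78 (SE 0.43, adjusted p = 8.7e-10) on days 1, 3, and 7 on the log2 scale, and the KO change was -2.63, -4.91, and -6.57 (SE 0.36, 0.41, and 0.46; adjusted p at most 5.6e-06). From day 1 to day 3 alone Cebpa fell by 2.02 in WT (SE 0.38, edgeR adjusted p = 5.6e-04) and fell by 2.28 in KO cells (SE 0.38, adjusted p = 2.1e-04). From day 3 to day 7 it fell by 1.65 in KO cells (SE 0.43, edgeR adjusted p = 0.0153), a call lost without isolation 2 or 3 (adjusted p = 0.243 and 0.111), while the WT change was -0.58 (SE 0.40, adjusted p = 0.481).

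Gata6 (ENSMUSG00000005836, chromosome 18, plus strand) had the smallest changes from day 0 by day 7. WT libraries held 69.6, 79.7, and 62.9 CPM when fresh, 37.3, 35.5, and 45.7 CPM after 1 day, 54.6, 77.7, and 71.5 CPM on day 3, and 35.3, 44.5, and 50.6 CPM on day 7. KO libraries held 83.6, 67.0, and 52.5 CPM when fresh, 37.3, 40.7, and 41.6 CPM after 1 day, 55.1, 64.2, and 74.4 CPM on day 3, and 41.4, 50.7, and 40.4 CPM on day 7. Days 0 and 3 overlapped in both genotypes, and days 1 and 7 lay below day 0. Gata6 fell by 0.84 on day 1 (SE 0.18, edgeR adjusted p = 6.0e-04) and by 0.70 on day 7 (SE 0.18, adjusted p = 0.00217) in WT cells, and by 0.76 (SE 0.18, adjusted p = 0.00149) and 0.62 (SE 0.18, adjusted p = 0.00584) in KO cells. Day 3 differed from day 0 by -0.06 in WT and -0.07 in KO cells (edgeR adjusted p = 0.806 and 0.773). With library totals the day 3 difference turned to 0.55 in WT and 0.50 in KO cells (edgeR adjusted p = 0.0125 and 0.0232), and the calls on days 1 and 7 were lost in both genotypes. The WT calls on days 1 and 7 were also lost without isolation 2 (adjusted p = 0.0760 and 0.0788), and the KO call on day 7 without isolation 1 (adjusted p = 0.115). From day 1 to day 3 Gata6 rose by 0.78 in WT (SE 0.18, edgeR adjusted p = 0.00321) and 0.70 in KO cells (SE 0.18, adjusted p = 0.00823), calls lost without isolation 2 in both genotypes (adjusted p = 0.130 and 0.0833) and without isolation 3 in KO cells (adjusted p = 0.0728). From day 3 to day 7 it fell by 0.65 in WT cells (SE 0.18, edgeR adjusted p = 0.0329), which was lost without isolation 1, 2, or 3 (adjusted p = 0.109, 0.365, and 0.0766). The KO change of -0.55 had an adjusted p of 0.0551, and of 0.0491 with isolation as a block.

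Klf5 (ENSMUSG00000005148, chr14:99298691-99315036, plus strand) was the member that rose. It went from 152, 160.4, and 177 CPM in WT and 174, 159, and 152 CPM in KO cells on day 0 to 429, 234, and 569 CPM in WT and 477, 257, and 599 CPM in KO cells on day 1. All 6 day 1 libraries exceeded every other library of the series, by the least in isolation 2. The rise was 1.33 in WT (SE 0.26, 2.52-fold, edgeR adjusted p = 2.5e-04) and 1.46 in KO cells (SE 0.26, adjusted p = 1.1e-04) on the log2 scale. Day 3 gave 119, 165, and 157 CPM in WT and 157, 183, and 179.99 CPM in KO cells, which overlap day 0. Day 7 gave 99.5, 91.3, and 88.0 CPM in WT and 102, 107, and 79.2 CPM in KO cells, all below day 0. The fall from day 0 to day 7 was 0.81 in WT (SE 0.26, edgeR adjusted p = 0.0111) and 0.75 in KO cells (SE 0.26, adjusted p = 0.0179), and both calls were lost with library totals (adjusted p = 0.173 and 0.213) and without isolation 1 (adjusted p = 0.0682 and 0.131) or 3 (adjusted p = 0.0651 and 0.0825). Library totals also turned the WT change on day 3 from -0.15 to 0.46 (edgeR adjusted p = 0.0803) and moved the KO change from 0.10 to 0.67, which was called (adjusted p = 0.0144). From day 1 to day 3 Klf5 fell by 1.48 in WT (SE 0.26, edgeR adjusted p = 3.5e-04) and 1.36 in KO cells (SE 0.26, adjusted p = 8.4e-04), the latter lost without isolation 1 (adjusted p = 0.0597). From day 3 to day 7 it fell by 0.85 in KO cells (SE 0.26, edgeR adjusted p = 0.0393), lost without isolation 1 or 3 (adjusted p = 0.211 and 0.247), and in WT cells the change was -0.66 (SE 0.26, adjusted p = 0.148), which was called with library totals (-0.81, adjusted p = 0.0290) and with only the libraries compared (-0.69, adjusted p = 0.0242).

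Between culture days the members did not all move the same way. From day 1 to day 3 in WT cells, 3 members rose (Nkx2-1, Foxa2, and Gata6) and 4 fell (Etv5, Cebpa, Foxa1, and Klf5), where 26.3% of genes were called (14.4% higher and 11.9% lower). In KO cells 3 rose and 3 fell, Foxa1 not being called (background 23.6%, with 13.4% higher and 10.2% lower). From day 3 to day 7 the members called, all lower, were Nkx2-1, Foxa2, and Gata6 in WT cells (background 6.58%, with 3.11% higher and 3.47% lower) and Nkx2-1, Foxa2, Cebpa, and Klf5 in KO cells (background 10.5%, with 4.40% and 6.15%). Foxa1 and Gata6 lay at the threshold in KO cells, with changes of -0.70 and -0.55 (edgeR adjusted p = 0.0508 and 0.0551), and the DESeq2 test called both (adjusted p = 0.0252 and 0.0304), as did library totals (edgeR adjusted p = 0.00826 and 0.0147). Ranges lay apart for 5 WT and 7 KO members in the first of these steps (36.2% and 39.8% of all genes) and for 4 and 7 in the next (28.5% and 31.9%).

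Levels of different genes were compared per kilobase of merged exon. In fresh WT cells the order was Etv5 (441 ± 18.9 CPM per kb), Nkx2-1 (208 ± 18.2), Cebpa (68.4 ± 11.4), Foxa2 (60.2 ± 5.97), Foxa1 (54.0 ± 0.554), Klf5 (31.4 ± 2.37), and Gata6 (10.9 ± 1.302; SD, n = 3). On day 1 Klf5 was first, at 79.0 ± 32.3 CPM per kb, before Foxa1 (27.9 ± 8.06), Etv5 (27.3 ± 23.9), and Nkx2-1 (26.2 ± 6.05). Nkx2-1 led on day 3 with 48.6 ± 12.5 CPM per kb, and on day 7 with 23.3 ± 3.34 beside 17.9 ± 1.14 for Klf5. Cebpa was last on days 3 and 7, at 1.85 ± 0.0764 and 1.23 ± 0.968 CPM per kb. The level of Klf5 over that of Nkx2-1 was 0.151 ± 0.00228, 3.09 ± 1.28, 0.594 ± 0.0756, and 0.783 ± 0.160 in WT cells of the same 4 times. Gene length is uncertain for genes with long alternative exons: with the longest transcript as length, the day 0 level of Gata6 was 18.7 and that of Klf5 48.7 CPM per kb, and Klf5 came before Nkx2-1 on day 7.

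On day 1 the isolations differed most for Etv5. The mean of the WT and KO libraries of Etv5 differed 8.76-fold between the highest and lowest isolation, a ratio that 2.41% of 16073 genes with at least 1 CPM reached and that compares with a median of 1.51 over those genes. The ratio was 2.38 for Klf5, 1.56 for Foxa1, and 1.54 for Cebpa, all lowest in isolation 2, while Nkx2-1 (1.51), Foxa2 (1.57), and Gata6 (1.17) were lowest in isolation 1. The share of genes that reached these ratios was 17.0% for Klf5, 46.3% for Foxa1, and 47.4% for Cebpa. It was 50.1% for Nkx2-1, 45.7% for Foxa2, and 87.6% for Gata6. Apart from Etv5 and Klf5, the members thus spread about as much as a typical gene or less. The surfactant and secretory genes summed to 23602 CPM in WT and 22154 CPM in KO cells of isolation 2, beside 94933 to 126981 CPM in the other 4 day 1 libraries. Fgfr2, which encodes the FGF receptor of AEC2s, stood at 39.3 and 45.1 CPM in isolation 2 and at 55.8 to 125 CPM in the others, and the FGF feedback inhibitor gene Spry1 at 21.1 and 31.4 against 33.9 to 51.8 CPM. Both were chosen after their values were seen: of the 12 FGF receptor and MAPK feedback genes, 6 were lowest in isolation 2 by the mean of both genotypes, while Etv4, Spred2, and Spry4 were highest there. In isolation 2, Etv5 in WT cells changed by 0.18 on the log2 scale from day 1 to day 3, against -3.13 and -2.46 in isolations 1 and 3. The summed club and ciliated cell genes were highest in isolation 2, at 16626 CPM in WT and 12553 CPM in KO cells, against 5488 to 9040 CPM in the others, and the library totals of isolation 2 were 10184439 and 12838685 counts. The part of these in the Etv5 values was not tested.

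**Figure D3:**
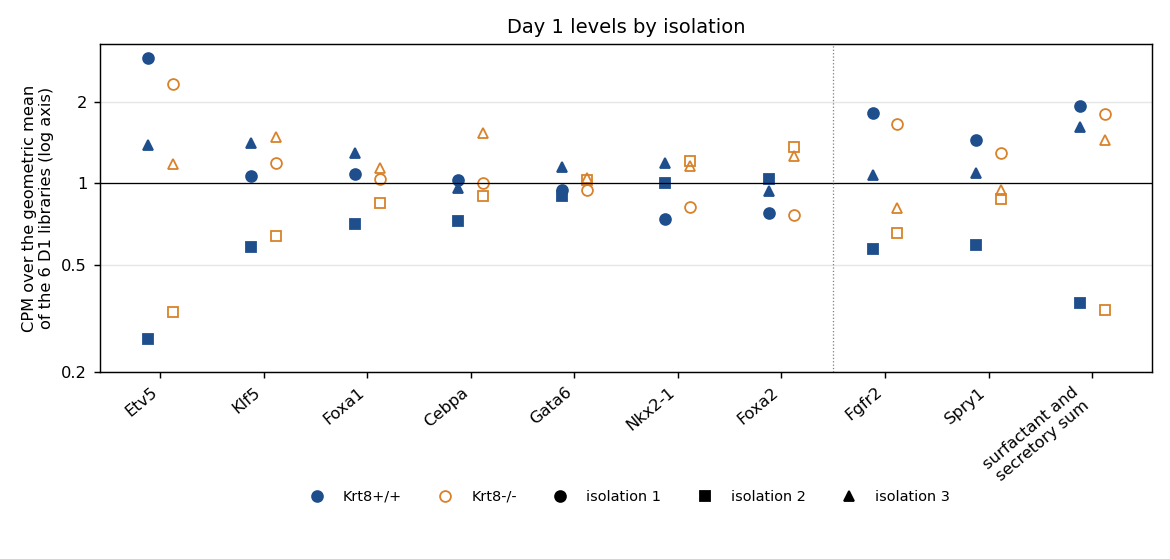
Day 1 level of each factor, of Fgfr2 and Spry1, and of the summed surfactant and secretory genes in the 6 libraries, divided by the geometric mean of the 6 (log axis). Colors mark genotype and shapes mark isolation. Isolation 2 (squares) is lowest for Etv5 and Klf5 in both genotypes and for the surfactant sum, but not for Nkx2-1 or Foxa2.

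Genes of related families did not move as one. Of 25 relatives, 20 were tested, and in WT cells 8, 7, and 7 were called higher and 7, 6, and 8 lower after 1, 3, and 7 days. All tested genes also split about evenly, with 26.2%, 26.1%, and 28.6% called higher and 28.5%, 27.8%, and 30.2% lower. The same shares stand beside the WT counts of the other gene lists below. In the C/EBP family Cebpd, a stress- and steroid-responsive member, fell with Cebpa, by 2.41 on day 1 (SE 0.29, edgeR adjusted p = 9.7e-07) and 3.60 on day 7 (SE 0.31, adjusted p = 5.6e-09). Cebpb, an inflammatory-response member, rose by 0.68 on day 1 (SE 0.28, edgeR adjusted p = 0.0415) and differed by -0.53 on day 7 (adjusted p = 0.106), and Cebpg, which lacks a classical activation domain, fell by 0.82 on day 7 (adjusted p = 0.00163). Per kilobase, Cebpa made up 38.6% of the summed level of these 4 genes in fresh WT cells (34.5% to 41.1%), and 5.84%, 3.15%, and 2.07% after 1, 3, and 7 days, the last with a range of 1.29% to 3.30%. Cebpb then led with 40.1 ± 14.1 CPM per kb on day 7.

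Among the ETV genes, Etv4 rose as Etv5 fell. Etv4 averaged 0.0934, 2.301, 9.08, and 16.6 CPM at the 4 successive times in WT cells, and 0.348, 2.08, 7.17, and 15.7 CPM in KO cells. The change from day 0 to day 7 was 7.40 in WT (SE 0.60, edgeR adjusted p = 2.4e-09) and 5.44 in KO cells (SE 0.50, adjusted p = 1.2e-08), from day 0 levels of few counts. Etv5 made up 99.9% of the summed ETV level per kilobase on day 0 and 54.2% on day 7 (39.5% to 69.1%) in WT cells. Etv1 fell by 2.58 on day 1 (SE 0.69, edgeR adjusted p = 0.00367) and differed by -1.19 on day 7 (adjusted p = 0.118). In the GATA family Gata2 and Gata4 rose by 4.04 (SE 0.80, edgeR adjusted p = 2.0e-04) and 3.88 (SE 0.84, adjusted p = 5.2e-04) from day 0 to day 7, to means of 11.1 and 5.06 CPM, which fall to 4.65 and 2.05 CPM without isolation 3 (23.9 and 11.1 CPM), Gata3 rose by 3.05 (SE 0.94, adjusted p = 0.00838), and Gata5 fell by 4.3 (SE 0.98, adjusted p = 7.8e-04). Gata6 held 91.8% of the summed GATA level on day 0 and 68.2% on day 7 (49.6% to 80.9%).

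Among the Krüppel-like genes, Klf4, Klf6, Klf7, and Klf10 also rose on day 1, Klf7 by 1.63 (SE 0.28, edgeR adjusted p = 6.8e-05) and Klf10 by 1.38 (SE 0.21, adjusted p = 1.3e-05). Klf6, an early-response factor, rose by 2.7 (SE 0.27, edgeR adjusted p = 8.3e-08), from 127 to 826 CPM in WT cells, and was still 1.61 higher on day 7 (SE 0.26, adjusted p = 2.4e-05). Klf4, a differentiation factor of surface epithelia, rose by 2.75 on day 1 (SE 0.63, edgeR adjusted p = 0.00107) and was at 0.02 on day 7 (adjusted p = 0.980). Klf15, a glucocorticoid-responsive metabolic regulator, fell by 4.31 on day 1 (SE 0.37, edgeR adjusted p = 1.0e-08) and 6.41 on day 7 (SE 0.42, adjusted p = 1.7e-10), and Klf9, another glucocorticoid target, by 1.71 on day 7 (SE 0.20, adjusted p = 2.8e-07).

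**Figure D4:**
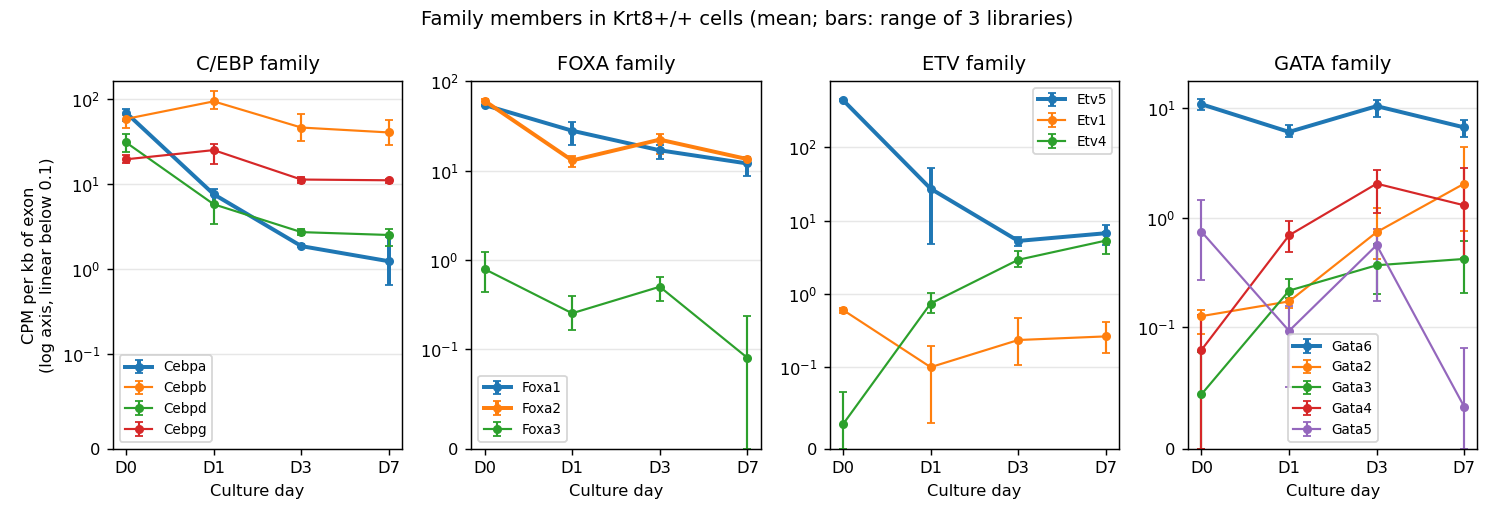
Mean level per kilobase of exon of C/EBP, FOXA, ETV, and GATA family genes in Krt8+/+ cells by culture day (log axis, linear below 0.1), with the range of 3 libraries. Thick lines are the AEC2 identity factors. Cebpa passes below Cebpb and Cebpg on day 1, and Etv4 nears Etv5 by day 7.

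FGF receptor and MAPK signaling drives Etv5, and its receptor and feedback genes were read with Etv1 and Etv4, which are counted among the relatives too. Of these 12 genes, 2, 3, and 3 were called higher and 7, 4, and 4 lower at the 3 culture times in WT cells, so 9, 7, and 7 were called in all, near the 54.0% and 58.8% of all genes on days 3 and 7. Fgfr2 fell from 1038 to 79.6 CPM on day 1 and to 39.9 CPM on day 7, a change of -4.70 (SE 0.37, edgeR adjusted p = 1.8e-09). Fgfr3, a receptor for several FGF ligands, fell by 5.40 over the 7 days (SE 0.28, adjusted p = 9.6e-12). The feedback inhibitor genes split: Spry1 and Spry2 fell by 3.94 and 2.79 by day 7 (SE 0.26 and 0.29; edgeR adjusted p = 1.7e-10 and 6.8e-08), whereas Spry4 and Dusp4 rose by 2.42 and 2.31 (SE 0.77 and 0.37; adjusted p = 0.0105 and 2.0e-05). Dusp6, an ERK phosphatase gene, differed by -0.22 (SE 0.20, edgeR adjusted p = 0.348).

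Of 8 cofactor genes, 4 were higher and 1 lower on day 7 in WT cells, a share near the 58.8% of all genes. Wwtr1, which encodes TAZ, a coactivator that binds NKX2-1 and TEAD factors, rose by 1.22 (SE 0.20, edgeR adjusted p = 2.3e-05) from 89.3 to 208 CPM, and its partner gene Tead1 by 2.05 (SE 0.25, adjusted p = 7.0e-07). Zfpm2, which encodes the GATA cofactor FOG2, rose by 4.01 (SE 0.80, edgeR adjusted p = 2.1e-04) from 0.706 to 12.6 CPM, and the nuclear receptor coactivator gene Ncoa1 fell by 1.83 (SE 0.29, adjusted p = 1.8e-05). Yap1 differed by 0.15 (SE 0.13, edgeR adjusted p = 0.334). Fibroblasts also express several of these genes and of the GATA relatives. The 8 fibroblast genes, none of them at 0 in any group, summed to 296 to 994 CPM in fresh WT cells and to 143 to 261, 1005 to 1790, and 899 to 1911 CPM after 1, 3, and 7 days. In KO cells of day 7 they summed to 957, 835, and 3178 CPM, and the pan-epithelial genes to 1904, 2383, and 1100 CPM, so isolation 3 stood apart. Nkx2-1, Foxa1, Foxa2, Gata6, and Klf5 were the lowest of the KO day 7 libraries there, Etv5 was the highest, and Cebpa lay between. In WT cells of day 7, isolation 3 also held the highest fibroblast sum (1911 CPM) and the lowest pan-epithelial sum (1206 CPM). There Nkx2-1 (76.1 CPM), Foxa2 (33.0 CPM), Gata6, and Etv5 were the highest of the WT day 7 libraries, and Foxa1, Klf5, and Cebpa the lowest. Without isolation 3 the KO change from day 3 to day 7 was -1.27 for Nkx2-1 (edgeR adjusted p = 0.0082) and -1.01 for Foxa2 (adjusted p = 0.0520). By day 7 in WT cells, 3 of 8 fibroblast genes were higher and 3 lower: Col1a1 rose by 3.27 and Pdgfrb by 3.84, and Dcn fell by 3.51. The part of fibroblast RNA in the values of Gata2, Gata4, Zfpm2, Tead1, and the members was not tested.

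Of 26 other transcription factor genes of lung epithelium, 7 were higher and 18 lower on day 7 in WT cells, with a median change of -1.71. Among all tested genes 28.6% were higher and 30.2% lower at that time. Elf5, an ETS factor of distal epithelium, fell from 20.0 to 1.36 CPM on day 1 (edgeR adjusted p = 1.2e-04) and had no count in WT cells on day 7. Ehf, another epithelial ETS factor, fell by 4.09 (SE 0.31, edgeR adjusted p = 1.1e-09), and Sox9, a factor of the embryonic distal tip, rose by 6.88 (SE 0.47, adjusted p = 2.9e-10).

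The surfactant and secretory genes, many of them bound by NKX2-1, C/EBPα, and FOXA factors, fell almost without exception: 19 of 20 were lower on day 1 and 20 of 20 on days 3 and 7 in WT cells, with median changes of -2.56, -6.86, and -9.40. Sftpc went from 186650 CPM to 43920, 279, and 48.8 CPM at the 3 culture times. The genes with the largest changes by day 7 were Sftpa1 (-15.56), Chia1 (-15.41), and Cxcl15 (-14.85), with SE of 1.24, 1.11, and 1.14 and edgeR adjusted p of 2.1e-09, 5.0e-10, and 1.2e-09. Nkx2-1 and Foxa2 rose from day 1 to day 3, while the summed level of these genes went from 23602 to 126981 CPM on day 1 down to 2032 to 3760 CPM on day 3 in WT cells. Among 17 AEC1 genes, 6 rose and 9 fell within a day, whereas by day 7 13 stood higher and 2 lower, led by Akap5 (5.01, SE 0.48), Igfbp2 (4.67, SE 0.54), and Pdpn (4.66, SE 0.47; edgeR adjusted p at most 3.2e-07). The 2 that fell are not named. Of all tested genes, 28.6% were higher and 30.2% lower by day 7. The summed level of the 17 genes in WT libraries was 5568 to 6214 CPM on day 0 and 5206 to 8034 CPM on day 7, so the ranges overlapped.

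Loss of NKX2-1 in lung epithelium is known to let gastric and intestinal genes come on, so 20 gastrointestinal genes were read as a list. Of these, 10 were tested, with 5, 4, and 4 called higher and 1, 3, and 4 called lower at the 3 culture times in WT cells. Of all tested genes, 54.7%, 54.0%, and 58.8% were called at these times. The median log2 change of the list was 3.72, 2.03, and -0.08, so on day 7 the list as a whole was not higher. The genes given with changes below all rose, and those called lower are not named. Ctse, a gastric aspartic protease gene, rose from 1.54 CPM on day 0 to 16.1, 219, and 95.8 CPM on days 1, 3, and 7, a change of 5.95 by day 7 (SE 0.46, edgeR adjusted p = 1.3e-09). Onecut2 and Krt20 had no count on day 0 and reached 1.70 and 6.20 CPM on day 7 (edgeR adjusted p = 1.6e-04 and 6.8e-05). Hnf4a, the central factor of gastrointestinal epithelium, also had no count on day 0 and held 0.764, 1.35, and 0.312 CPM on days 1, 3, and 7 (edgeR adjusted p = 0.00333, 9.3e-04, and 0.0181). Pdx1, Gkn1, and Tff3 had no count in any library, and Cdx2 had 1 count in all.

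The 8 pan-epithelial genes, such as Epcam and Cdh1, summed to 2230 to 2361 CPM on day 0 and 1206 to 1911 CPM on day 7 in WT libraries, and 3 of 8 were lower on day 7 (Prss8 by 4.01, Esrp2 by 0.93, and Epcam by 0.60). Set against this sum in the same library, the mean level of Nkx2-1 on day 7 was 16.4% of that on day 0 in WT and 13.9% in KO cells, that of Etv5 2.2999% and 2.43%, and that of Cebpa 2.39% and 1.46%. For Foxa1 it was 30.4% and 29.1%, for Foxa2 32.2% and 23.5%, for Klf5 81.0% and 79.9%, and for Gata6 90.6% and 89.5%. Single libraries varied around these means. Per 1000 pan-epithelial counts, Gata6 in WT cells ran from 18.4 to 41.9 on day 7 and from 28.2 to 33.8 on day 0. Nkx2-1 ran from 29.9 to 63.1 on day 7 and from 239 to 289 on day 0. Macrophage genes summed to 6.89 to 192 CPM in WT libraries of any day, endothelial genes to 2.57 to 27.7 CPM, and lymphocyte genes to at most 9.40 CPM, with Pecam1, Cldn5, Cd3e, Cd3g, and Ms4a1 among those at 0 in WT cells on day 7. Club and ciliated cell genes, whose cells also use FOXA and NKX2-1 factors, fell from 6092 to 12292 CPM on day 0 to 491 to 614 CPM on day 7 in WT libraries.

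The genes nearest to each member across the 24 libraries were found with the same centered difference used for Nkx2-1 and Foxa2. Nearest to Nkx2-1 were Slc46a3, a lysosomal transporter gene (0.306), and Rab15 (0.352), and nearest to Foxa2 were Socs2, a suppressor of cytokine signaling (0.266), and Mbip (0.279), which lies at chr12:56328303-56345894, beside Nkx2-1. Etv5 was nearest to Tspan11 (0.298) and to Dbp (0.465), a clock-controlled transcription factor gene, and Cebpa to Ces1e (0.566) and Acss2 (0.570), an acetyl-CoA synthetase gene. Foxa1 was nearest to Baiap2l1 (0.223) and Hmgcs1 (0.235), the latter of cholesterol synthesis, Gata6 to Lmtk2 (0.211) and Txndc12 (0.212), and Klf5 to Zfand5 (0.224) and Slc3a2 (0.297), an amino acid transporter subunit gene. With the 8 group means, neither gene stayed among the nearest pair for Foxa2 and Klf5, 1 did for Nkx2-1, Cebpa, Foxa1, and Gata6, and both did for Etv5. Among the members themselves over the 24 libraries, Etv5 and Cebpa were 1.21 apart, Foxa1 and Foxa2 0.606, and Etv5 and Klf5, the pair furthest apart, 2.63.

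Whether keratin 8 alters these factors was asked by comparing KO with WT cells on each day. No member was called on any day, over days 1 to 7 together, or in the test of genotype by day (edgeR adjusted p = 1 for every member). Across all genes the calls were 5 on day 0, 3 on each of days 1, 3, and 7, 8 over days 1 to 7, and 1 for genotype by day, that is 0.0277%, 0.0166%, 0.0166%, 0.0166%, 0.0443% (0.0222% in each direction), and 0.00554%. At an unadjusted p below 0.05, edgeR and DESeq2 each passed 1 member, on day 7, and none on days 0, 1, and 3, and DESeq2 called no member after adjustment. The share of all genes past this unadjusted threshold is not given here, so the count is not read as a difference. The 1 member was Cebpa, at -0.99 (SE 0.44, 95% interval -1.92 to -0.07), lower in KO than WT cells in 3 of 3 isolations, with overlapping ranges. Isolations 1, 2, and 3 gave -1.20, -1.72, and -0.17, and the KO library of isolation 2 held 7 counts of Cebpa. Leaving out isolation 1, which holds the highest value of both genotypes, gave -0.72.

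Intervals of the genotype difference show what size of change these libraries leave possible. Over days 1 to 7, KO minus WT was -0.01 for Nkx2-1 (95% interval -0.24 to 0.23), -0.01 for Gata6 (-0.23 to 0.20), 0.03 for Foxa1 (-0.23 to 0.30), and 0.10 for Foxa2 (-0.15 to 0.35) on the log2 scale. For Klf5 it was 0.13 (-0.18 to 0.44), for Cebpa -0.19 (-0.66 to 0.29), and for Etv5 -0.21 (-0.88 to 0.47), so the interval for Etv5 is the widest. On day 0 the Etv5 ranges of the genotypes did not overlap, with KO at most 1748 and WT at least 1754 CPM, a difference of -0.14 (SE 0.54). This SE rests on an estimate of spread shared by all 8 groups, not on day 0 alone. Etv5 was at 1809 ± 77.4 CPM in WT and 1646 ± 167 CPM in KO cells on day 0 (SD, n = 3). On day 1 it was at 112 ± 98.0 and 94.7 ± 74.1 CPM. On day 7 Nkx2-1 was at 51.9 to 57.0 CPM in KO and 57.2 to 76.1 CPM in WT cells, which also did not overlap. The difference was -0.26 (95% interval -0.67 to 0.14), and -0.11 without isolation 3. In that isolation both the WT and the KO library held the most fibroblast RNA of their genotype on day 7. Ranges did not overlap for 6.88% of genes on day 0 and 5.54% on day 7. Club and ciliated cell genes were higher in every KO than in every WT library on day 0, at 14488 to 19926 against 6092 to 12292 CPM in sum, with 0 of 7 called by edgeR or DESeq2 and 2 and 1 at an unadjusted p below 0.05. Their part in the genotype comparison was not tested.

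**Figure D5:**
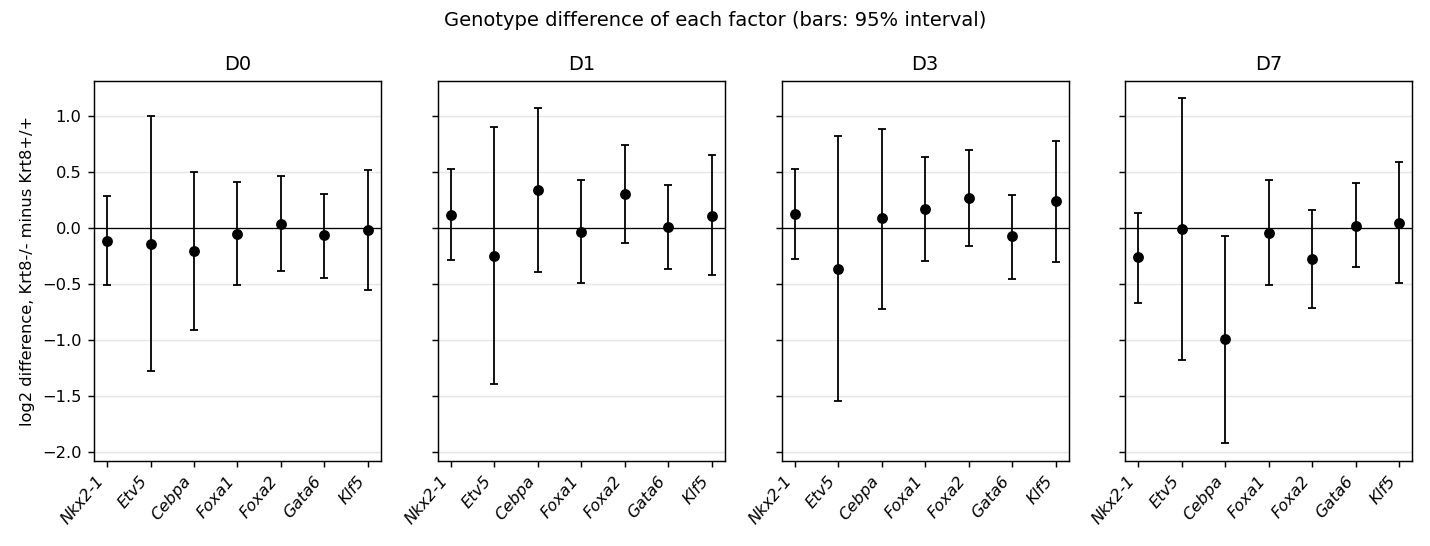
Log2 difference of each factor, Krt8-/- minus Krt8+/+, on each culture day, with 95% intervals from the fit over all 24 libraries. All intervals include 0 except that of Cebpa on day 7, at -1.92 to -0.07, which is not adjusted for the number of genes tested.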

How the data were processed

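Bulk RNA-seq was analysed for 24 libraries, 1 for each of 2 genotypes, 4 days, and 3 isolations. The submitters' processing notes name cutadapt 2.3, STAR 2.7.8a, RSEM 1.3.3, and GRCm38. The authors deposited whole numbers, which were taken to be RSEM expected counts after rounding, a step the notes do not state. Some genes with identical transcripts had equal counts in every library (10 of 24 such pairs). Symbols came from GENCODE M21 (55240 of 55421 identifiers), and 5 reporter rows held no count. Identifiers without a symbol took at most 0.0122% of a library.

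Genes passing filterByExpr (minimum count 10, minimum total 15) were tested with the edgeR 4.0.16 quasi-likelihood F test (limma 3.58.1, R 4.3.3) in 1 model of 8 groups with TMM factors and 16 residual degrees of freedom. P-values were Benjamini-Hochberg adjusted over 18046 genes at a threshold of 0.05, and intervals cover 95%. Library totals of 10184439 to 19483386 counts set the precision of low genes such as Cebpa on day 7. No replicates of a group held identical values. The test was tested on simulated data. For likeness, log2 CPM with a prior count of 2 was used. Promoter windows came from RefSeq (GRCm38.p6), which matched 5 of 7 members, and those free of annotated exon bases are printed.

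Libraries of an isolation share a date in the labels, which pairs them. The correlation of deviations from the group means of paired libraries ran from 0.405 to 0.508 between genotypes on day 1, and over all comparisons from -0.03 to 0.548.

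The members and gene lists were chosen with earlier results of these data known. Named were all members, the tested C/EBP, FOXA, ETV, and GATA relatives, up to 3 genes of each other list with the largest called change between days 0 and 7 in WT cells (the same direction in each isolation, at least 1 CPM), and the 2 genes most like each member. Other genes were named after their values were seen: Klf4, Klf6, Klf7, Klf9, Klf10, Klf15, Spry1, Spry2, Spry4, Dusp4, Dusp6, Spred2, Wwtr1, Yap1, Sftpc, Hnf4a, Epcam, and those given as without counts. Alternatives were DESeq2 1.42.0 (its size factors and its test), library totals, isolation as a block, omission of the low-count filter, only the libraries compared, each isolation left out, the longest transcript as length, and group means for likeness.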

Additional observations from a re-analysis of the deposited data

How the results depend on the processing

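Of 630 values of member changes between days under other settings, 563 kept direction and call, 47 lost and 14 gained the call, and 6 turned. Of 315 genotype differences, 290 kept direction and 25 turned, and no genotype call was gained. With library totals, Gata6 on day 3 against day 0 was 0.55 in WT and 0.50 in KO cells, Klf5 in WT 0.46, and Foxa1 KO minus WT on day 1 0. Leaving out 1 isolation gave Gata6 -0.17 to 0.07 (WT) and -0.34 to 0.21 (KO) on day 3 against day 0. For KO minus WT it gave on day 0 Klf5 -0.12 to 0.09, Foxa2 -0.04 to 0.11, Gata6 -0.26 to 0.03, and Foxa1 -0.15 to 0.04; on day 1 Gata6 -0.08 to 0.10 and Foxa1 -0.13 to 0.07; on day 3 Cebpa -0.18 to 0.20 and Gata6 -0.15 to 0.02. On day 7 it gave Foxa1 -0.18 to 0.08, Gata6 -0.08 to 0.21, Etv5 -0.16 to 0.10, and Klf5 -0.05 to 0.13, and over days 1 to 7 Nkx2-1 -0.09 to 0.08, Cebpa -0.32 to 0, Foxa1 -0.01 to 0.08, and Gata6 -0.05 to 0.05. Gata6 on day 1 was -0.01 with DESeq2 factors and with the DESeq2 test and 0 with only the libraries compared, as was Klf5 on day 0 (0). The cause was not tested.

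With an isolation left out, members called numbered 4 to 5 (WT) and 3 to 4 (KO) from day 1 to day 3 and 0 to 2 (WT) and 1 to 4 (KO) from day 3 to day 7. Genes called numbered 2614 to 3085 and 1842 to 2691 from day 1 to day 3, and 325 to 572 and 834 to 969 from day 3 to day 7, fits with fewer libraries. With only the libraries compared, 2879 genes were called in WT cells from day 1 to day 3. Genes called between genotypes with an isolation left out numbered 2 to 5 on each of days 0, 1, and 7, 3 to 5 on day 3 and over days 1 to 7, and 0 for genotype by day. DESeq2 called 9 on day 0, 5 on day 1, 8 on day 3, 20 over days 1 to 7, and 3 for genotype by day, and no filter gave 10, 6, 13 (days 1 to 7), and 2 (genotype by day). Only the libraries compared gave 4 over days 1 to 7. With isolation as a replicate block, 13 genes were called over days 1 to 7 against 8 without it, Nkx2-1 was at 0.01 there, and Gata6 from day 3 to day 7 in KO cells passed (adjusted p = 0.0491). The block changed no other member's call. Depth limits Cebpa on day 7, where 1 library held 7 counts.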

Other observations

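Nkx2-1 and Foxa1 lie on the same stretch of chromosome 12, and genes within 500000 bases on either side of it were read after their values were seen. Mbip (GRCm38 chr12:56328303-56345894) fell in WT cells by 2.13 on day 1, 1.83 on day 3, and 2.25 on day 7 on the log2 scale (edgeR adjusted p = 7.4e-09, 3.6e-08, and 1.8e-09), with means of 149, 34.0, 42.0, and 31.3 CPM from day 0 to day 7. Ttc6 (chr12:57564113-57737928), next to Foxa1, fell by 1.45, 3.00, and 2.09 (edgeR adjusted p = 0.00212, 1.9e-06, and 6.7e-05). Mipol1 fell by 0.86 on day 1 (edgeR adjusted p = 0.00336). Prps1l3 was called on none of the 3 days, while Nkx2-9 rose by 1.78 on day 1 (edgeR adjusted p = 0.0367) and Pax9 by 3.92 on day 7 (adjusted p = 0.0424), both with WT group means of at most 1.27 CPM.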
